A study of Drosophila melanogaster with 4 samples.

Results

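The Rab GTPase genes described here are the protein-coding genes of the dm6 Ensembl annotation whose symbol begins with Rab and then a digit or X. There were 36 of them among 13968 protein-coding genes, 33 encoding Rab GTPases and 3 encoding regulators of a Rab protein (Rab3-GEF, Rab3GAP1 and Rab3-GAP). Membership rests on the symbol alone. Rab genes encode small GTPases that mark the membranes of the secretory and endocytic pathways. A Rab protein is active when bound to GTP. It is loaded by guanine nucleotide exchange factors (GEFs), switched off by GTPase-activating proteins (GAPs), and held in the membrane by lipid groups. In its active form it recruits effectors, among them tethers and motor adaptors, that move, dock and fuse vesicles. At the start of metamorphosis in the fly the salivary glands secrete glue and larval tissues turn over their contents by endocytosis and autophagy, and Rab proteins act in both.

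The measurement was chromatin immunoprecipitation and sequencing (ChIP-seq) of Eip78C, an ecdysone-induced nuclear receptor related to vertebrate Rev-erb. The samples were 4 biological replicates of Drosophila melanogaster at the white prepupa stage, with both sexes pooled in each, and they form 1 group. Every sample came from a transgenic line that stably expresses Eip78C carrying eGFP at its C-terminus, and an anti-GFP antibody was used. The labels describe an insertion that targets Eip78C without naming the promoter of the tagged copy, give no age beyond the stage, and whole animals mix all tissues. The authors' peak calls used a control alignment, but no control library was analysed here. The joint list thresholded for reproducibility, called the optimal list, held 8282 peaks, and each replicate list held 30000. The lists give no read counts, so depth is unknown. Peaks were ranked within each list by the authors' signal score, with rank 1 the highest, and each peak was placed at its summit. Ranks in a replicate are those of its strongest peak that overlapped the optimal peak by at least 1 bp. For a gene with no optimal summit they are those of the strongest replicate summit within 1 kb of a TSS.

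Summits of the optimal list lay within 1 kb of a transcription start site (TSS) at 12 of the 36 genes, which is 33.3% (95% exact Clopper-Pearson interval 18.6 to 51.0%, counting error only). The same was true of 22.0% of all protein-coding genes, a share inside that interval. The 12 were Rab1, Rab5, Rab7, Rab8, Rab11, Rab14, Rab18, Rab21, Rab30, Rab39, Rab40 and the regulator Rab3GAP1. Rab23 and Rab32 had a summit only deeper inside the gene, which brings the number to 14 (38.9%), beside 26.1% of all genes by the same rule. The other 22 had none. In all 20 optimal summits lay at these 14 genes, 15 of them within 1 kb of a TSS. On the X chromosome 4 of 14 members had a summit within 1 kb (28.6%, beside 25% of all X-linked genes), and on the autosomes 8 of 22 (36.4%, beside 21.5%).

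Each replicate gave a similar picture. In the 8282 strongest peaks of replicates 1, 2, 3 and 4, summits lay that near to respectively 13, 13, 11 and 14 of the 36 genes. The mean share was 35.4% ± 3.50 (SD, n = 4). The shares of all protein-coding genes were 25.2%, 21.1%, 24.5% and 26.9% in the same lists. The Rab genes lay above all genes in each of the 4 lists, by 6.06 to 15.0 percentage points. The same 36 genes were scored each time, so the 4 lists do not narrow the counting error over genes. The optimal list was itself derived from replicate and pooled lists. The replicates did not all carry the same genes. Rab1, Rab5, Rab7, Rab8, Rab14, Rab39, Rab40 and Rab3GAP1 were present in all 4, and Rab18, Rab26 and Rab30 in 3. Rab21 and RabX1 were present in 2, and 6 genes in 1 (Rab9, Rab11, Rab23, Rab32, Rab35 and Rab3-GAP). The remaining 17 were in none. At least 3 of the lists held 11 of the 36 genes, beside 2908 of all 13968 protein-coding genes. For the other levels no matching count of all genes is given, so those counts are not set apart from all genes.

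**Figure D1:**
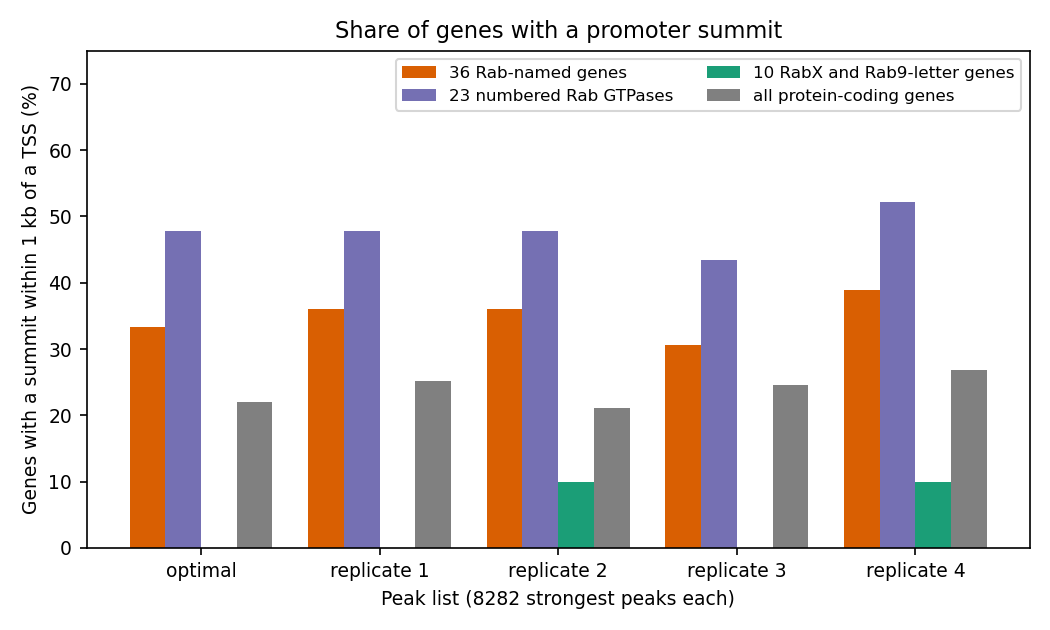
Percentage of genes (y axis, from 0) with a summit within 1 kb of a TSS, in the optimal list and in the 8282 strongest peaks of each replicate (x axis). Bars stand for the 36 Rab-named genes, the 23 numbered Rab GTPase genes, the 10 RabX and Rab9-letter genes, and all protein-coding genes; the 36 genes lie between 30.6% and 38.9%, and the 10 genes are at 0 or 10%. The split into 23 and 10 genes was made after the values were seen.

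Most of these peaks were of middle or low strength. The best peak within 1 kb had a median rank of 4648 over the 12 genes, against 3113.5 over the 3078 protein-coding genes that had a summit. Among the 4141 strongest optimal peaks only Rab5, Rab3GAP1, Rab14, Rab39 and Rab8 still had a summit within the 1 kb window, 13.9% of the 36 genes beside 13.5% of all genes. Of the 20 summits, 12 were met in all 4 replicates by a peak among the 8282 strongest, while 61.1% of all optimal peaks were.

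**Figure D2:**
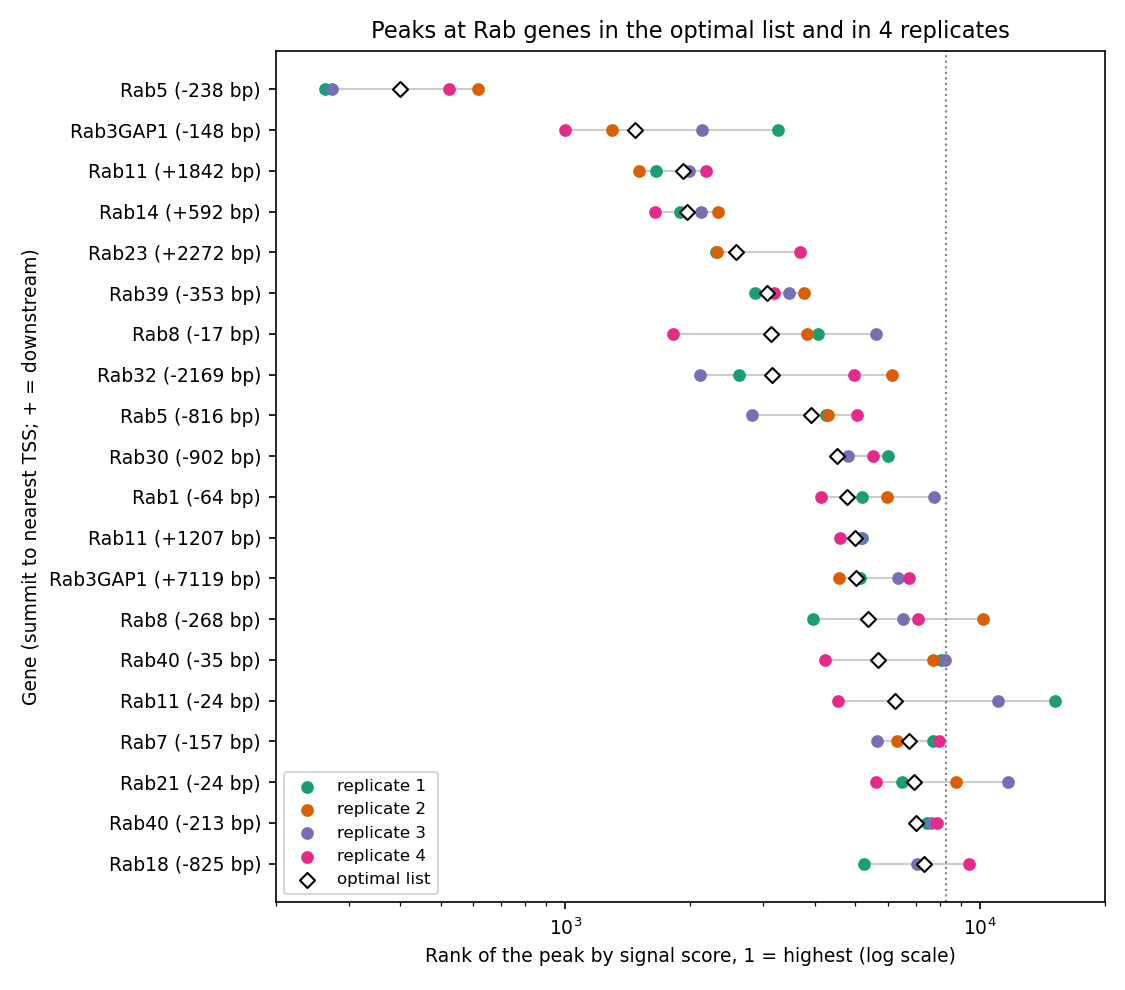
Rank by signal score (x axis, log scale, 1 the highest) of the 20 optimal peaks at Rab genes (y axis, with the signed distance in bp from summit to nearest TSS). Diamonds give the optimal list, dots the 4 replicates, grey lines their range, and the dotted line rank 8282; the Rab5 peak stands apart at the left, with replicate ranks from 263 to 617, and no dot is drawn where a replicate had no overlapping peak.

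Sequences of 200 bp centred on the summit are given for 5 of the genes whose peaks ranked best within the family and whose summit lies outside a UTR. These are the stretches those peaks stand on, from rank 400 at Rab5 to rank 3131 at Rab8. For Rab8 the window was shortened to 60 bp so that it stays clear of the annotated UTRs on either side. A second Rab11 window is added because it holds the only nuclear receptor motif found at these summits. Bases are dm6, 5′ to 3′ on the strand of the gene. Capitals mark matches on either strand to the motifs searched, which are described after the genes.
Rab5 (chr2L:2363642-2363841, minus strand): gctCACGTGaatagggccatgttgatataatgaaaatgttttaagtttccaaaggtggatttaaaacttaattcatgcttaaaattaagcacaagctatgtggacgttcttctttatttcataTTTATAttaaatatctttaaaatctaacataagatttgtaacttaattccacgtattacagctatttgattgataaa
Rab11, strongest summit (chr3R:21113150-21113349, plus strand): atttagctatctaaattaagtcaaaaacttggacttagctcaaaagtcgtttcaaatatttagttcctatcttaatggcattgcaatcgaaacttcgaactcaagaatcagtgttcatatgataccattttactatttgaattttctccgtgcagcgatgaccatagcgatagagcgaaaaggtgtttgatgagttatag
Rab11, second summit (chr3R:21112515-21112714, plus strand): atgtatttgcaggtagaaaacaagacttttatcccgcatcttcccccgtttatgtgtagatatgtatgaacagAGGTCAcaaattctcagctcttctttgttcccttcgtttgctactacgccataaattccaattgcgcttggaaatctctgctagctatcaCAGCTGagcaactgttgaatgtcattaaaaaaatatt
Rab14 (chr2L:14355637-14355836, plus strand): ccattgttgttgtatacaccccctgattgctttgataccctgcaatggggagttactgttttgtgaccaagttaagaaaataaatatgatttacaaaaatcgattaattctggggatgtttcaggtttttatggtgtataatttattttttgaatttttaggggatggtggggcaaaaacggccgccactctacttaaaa
Rab23 (chr3R:5683062-5683261, minus strand): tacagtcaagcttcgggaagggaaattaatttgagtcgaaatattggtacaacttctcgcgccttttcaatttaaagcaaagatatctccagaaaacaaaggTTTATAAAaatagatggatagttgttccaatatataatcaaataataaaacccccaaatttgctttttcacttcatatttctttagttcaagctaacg
Rab8 (chr3L:19871079-19871138, minus strand): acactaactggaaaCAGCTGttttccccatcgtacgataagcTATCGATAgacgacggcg

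The genes are taken by role below, in groups of 2 to 13. In each group the exact 95% interval of the share held the 22.0% of all genes. The counts therefore set no group apart from all genes. Both early endosome genes had a start-site summit, and 1 of them had the strongest peak of the family. Rab5 (FBgn0014010, chr2L:2359142-2365273, minus strand) directs the fusion of incoming endocytic vesicles into early endosomes. Its peak at 2L 2363542 to 2363954 had a signal score of 841 and ranked 400 of 8282. The ranks were 263, 617, 273 and 525 in order of replicate number (mean 419.5 ± 179, SD, n = 4), so that it stayed near the top of every list. The summit, at 2363742, lay in an intron of Rab5, 1531 bp from the 5′ end of the gene and 238 bp upstream of an internal TSS at 2363504. The gene has 6 annotated TSSs, and no other protein-coding gene had a TSS within 1 kb of this summit. A second Rab5 summit at 2366089 ranked 3911 (mean replicate rank 4110 ± 934, SD, n = 4). It lay 816 bp upstream of Rab5 in an intron of Axud1 and was nearer to the Axud1 TSS, at 495 bp. Rab21, which in mammals acts in early endosomes and integrin uptake, had a weak peak of rank 6945. Its summit lay 24 bp upstream of Rab21 and 62 bp upstream of Coa7, a gene on the opposite strand. It ranked 6501, 8764, 11706 and 5615 in replicates 1 to 4, so 2 replicates placed it below their 8282 strongest peaks.

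Of the recycling genes, Rab11 and Rab14 had summits near a TSS, and Rab4 and Rab35 had none. Rab11 (FBgn0015790, chr3R:21111408-21116146, plus strand) encodes the main GTPase of the recycling endosome. Its strongest peak was in an intron, 1842 bp downstream of the only TSS (summit 21113250). That peak had a signal score of 349 and ranked 1917, and its replicate ranks were 1653, 1503, 1985 and 2183 (mean 1831 ± 309, SD, n = 4). The peak at the start site itself, 24 bp upstream, was far weaker and varied between replicates. It ranked 6255 in the optimal list and 15204, 11056 and 4553 in replicates 1, 3 and 4, and replicate 2 had no overlapping peak among its 30000. Another peak, 1207 bp downstream in the same intron, ranked 5009, with ranks of 5198, 5165 and 4584 in replicates 1, 3 and 4 and none in replicate 2. Rab14 (FBgn0015791, chr2L:14355145-14358764, plus strand), which in mammals acts at endosomes and the trans-Golgi network, had 1 peak in its first intron, 592 bp downstream of the first TSS (summit 14355737). It ranked 1960, and its replicate ranks of 1885, 2339, 2123 and 1645 (mean 1998 ± 300, SD, n = 4) spanned a narrow range. Within 1 kb of Rab4 no replicate list held a peak, and at Rab35 the replicate ranks ran from 7889 to 16634.

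Among genes of ER and Golgi transport, Rab1, Rab18 and Rab30 had a summit and Rab2 and Rab6 had none. Rab1 (FBgn0285937, chr3R:21266029-21269060, minus strand), which drives transport from the ER to the Golgi, had a peak 64 bp upstream of its TSS (summit 21269124). The peak was number 4779 by score, with replicate ranks of 5204, 5974, 7761 and 4137 (mean 5769 ± 1527, SD, n = 4). The summits of Rab18, a GTPase of the ER and lipid droplets, and Rab30, a Golgi GTPase, lay in introns of neighbouring genes. The Rab18 summit (rank 7316) was 825 bp upstream of Rab18 and 97 bp upstream of a TSS of the ribosomal protein gene RpL35. The Rab30 summit (rank 4517) was 902 bp upstream of Rab30 and 787 bp downstream of the TSS of Caper, a splicing factor gene. Replicate 2 had no peak overlapping either of them. In replicates 1, 3 and 4 the Rab18 peak ranked 5262, 7060 and 9388. Replicate 4 counts for Rab18 above through a different summit within 1 kb of its TSS, at rank 7578. The Rab30 peak ranked 5998, 4794 and 5520 in replicates 1, 3 and 4, within the 8282 strongest each time. Replicate peaks within 1 kb of Rab2, which acts at the Golgi and on late endosomes, ranked between 12211 and 17149 in 3 replicates. Those at Rab6, a Golgi GTPase, ranked between 11571 and 25429 in 3 replicates.

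In the late endosome, lysosome and autophagosome group, Rab7 and Rab39 had a summit near a start site, Rab32 had an intronic summit, and Rab9 had none. Rab7 (FBgn0015795, chr3R:23993008-23995452, plus strand), which directs late endosomes and autophagosomes to lysosomes, had a weak intronic peak of rank 6757, 157 bp upstream of an internal TSS (summit 23993576). Replicates 1 to 4 placed it at 7692, 6305, 5652 and 7973 (mean 6906 ± 1109, SD, n = 4), within the strongest 8282 each time. Rab39 (FBgn0029959, chrX:7734923-7736756, plus strand), linked to lysosomes, had a peak of rank 3072 at 353 bp upstream. The replicate ranks, 2865, 3766, 3459 and 3178, lay close together (mean 3317 ± 385, SD, n = 4). This summit lay in the 5′ UTR of Pdp, on the opposite strand, 81 bp from its start. Rab32, needed for eye pigment granules, which are related to lysosomes, had its summit 2674 bp into the gene, in an intron (rank 3157), with replicate ranks of 2622, 6142, 2115 and 4969. Peaks near the Rab9 TSS ranked between 7177 and 17936.

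Of 5 genes of regulated and polarised secretion, 1 had an optimal summit this near to a start site, Rab8 (20%, beside 22.0% of all genes). Rab8 (FBgn0262518, chr3L:19867488-19871078, minus strand), a GTPase of post-Golgi transport to the plasma membrane, had its stronger peak 17 bp upstream of the gene and 44 bp upstream of Usp32, which is transcribed the other way. That peak ranked 3131 and varied between replicates, which placed it at 4069, 3820, 5623 and 1816 (mean 3832 ± 1563, SD, n = 4). A second peak in the first intron, 268 bp upstream of an internal TSS, ranked 5377, and 3954, 10153, 6522 and 7095 in the replicates. Rab3, a GTPase of synaptic vesicles, and Rab27, known in mammals from secretory granules, had next to nothing in the replicate lists. No replicate had a peak within 1 kb of Rab3, and 1 had a peak at Rab27, at rank 12925. At Rab10, which acts in basal secretion in epithelia, the replicate ranks ran from 11896 to 24116. Rab26, linked to synaptic vesicle turnover, had no optimal summit, although peaks near an internal TSS ranked 4503, 5311 and 5522 in replicates 2, 3 and 4.

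**Figure D3:**
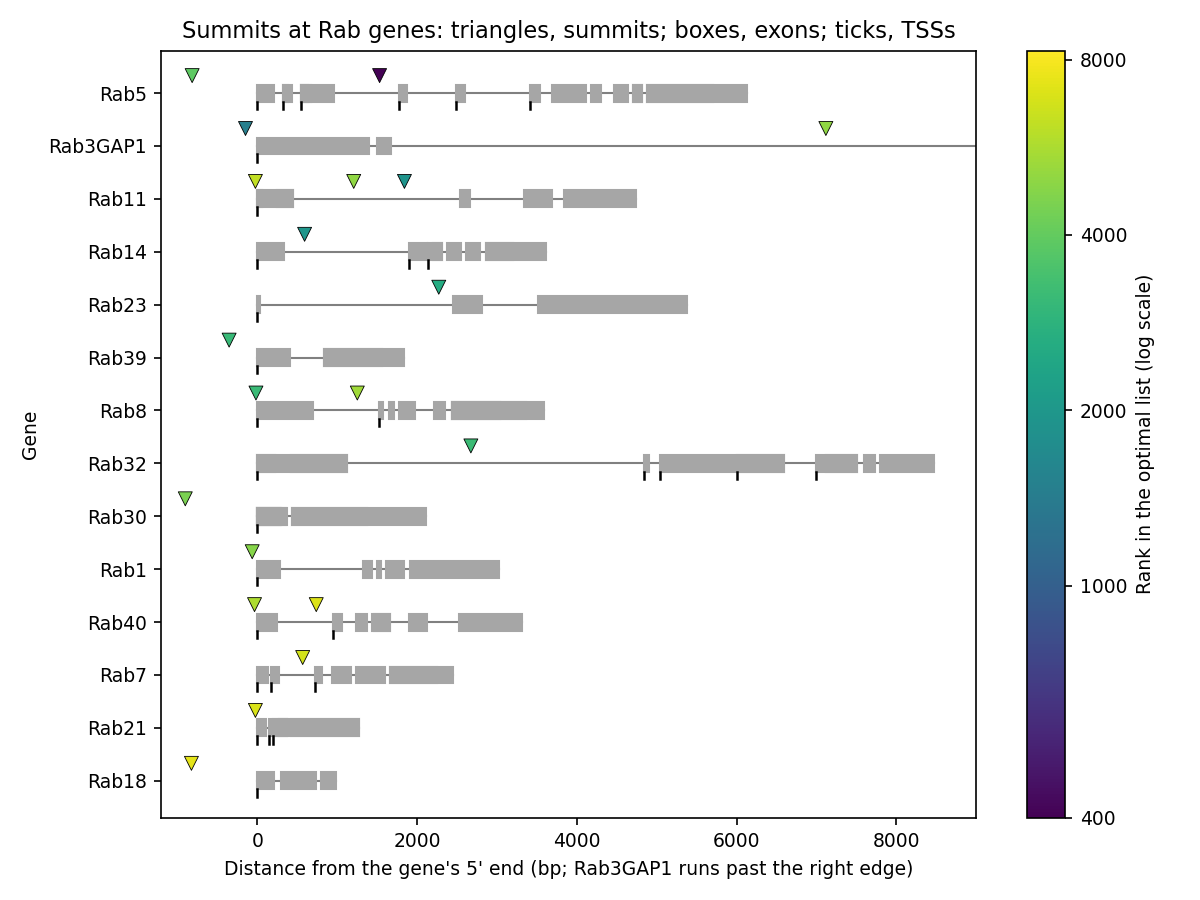
Summits (triangles, coloured by rank in the optimal list on a log scale) along the 14 genes that had any, with exons as boxes and TSSs as ticks, drawn to scale in bp from the 5′ end of each gene (x axis). Rab5, Rab7, Rab8 and Rab40 carry a summit just upstream of an internal TSS, and the strongest Rab11 peak stands inside an intron.

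The remaining 13 GTPase genes made up 12 of the 24 family members without an optimal summit within 1 kb of a TSS. Rab40, which encodes a Rab protein with a SOCS box that links it to ubiquitin ligases, had a peak 35 bp upstream of its TSS (rank 5683) and another in its first intron, 213 bp upstream of an internal TSS (rank 7021). The start-site peak ranked 8057, 7723, 8252 and 4226 in replicate order (mean 7065 ± 1905, SD, n = 4), so replicate 4 stood apart. The intronic peak ranked 7456, 7607 and 7873 in replicates 1, 3 and 4 and was missing from replicate 2. Rab23, a regulator of planar cell polarity, had an intronic peak 2272 bp downstream of its TSS (rank 2585), with ranks of 2307, 2317 and 3685 in replicates 1, 2 and 4 and no overlapping peak in replicate 3. Rab19 had peaks in 3 replicate lists, at ranks of 17125 to 28084. None of the 10 genes RabX1, RabX2, RabX4, RabX5, RabX6, Rab9D, Rab9Db, Rab9E, Rab9Fa and Rab9Fb had an optimal summit within 1 kb or inside the gene, and the exact 95% interval of a count of 0 reaches 30.8%, so that the 22.0% of all genes lies inside it. The other 23 GTPase genes had 11 (47.8%, exact 95% interval 26.8 to 69.4%). Over the replicates their share was 47.8% ± 3.55 (SD, n = 4), that of the 10 genes was 5% ± 5.77, and that of all genes was 24.4% ± 2.44. This division by name was made after the values were seen, so the intervals and SDs are no test of it. The SDs give the spread of the same genes over 4 lists, not the error of a share over few genes. Most of the 10 were also empty in the full replicate lists, where 7 had no peak within 1 kb of a TSS in any replicate and Rab9D had 1 in replicate 1 alone, at rank 27585. Many genes are empty in these lists. The mean share with a peak there was 46.3% ± 4.06 (SD, n = 4) of all genes, beside 20% ± 8.16 of the 10. The share of all genes empty in every replicate is not given. Rab9Fb had peaks at ranks of 12691 to 21409 in 3 replicates. RabX1 reached the 8282 strongest, at ranks 4870 and 7475 in replicates 2 and 4. Reads from near-identical copies can be lost in mapping. Of all 50 bp stretches within 1 kb of the TSS, between 50.6% and 56.2% occurred only once in the genome at Rab9D, Rab9Db, Rab9E and Rab9Fa, 90% at RabX2, 99.6% at Rab9Fb and 100% at the RabX1, RabX4, RabX5 and RabX6 genes and at the other 26. The part of this in the missing peaks was not tested.

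Among the 3 regulators of a Rab protein only Rab3GAP1 had an optimal summit. Rab3GAP1 (FBgn0051935, chr2L:1594822-1611157, minus strand) encodes the catalytic subunit of the Rab3 GTPase-activating complex. Its peak ranked 1475, with a score of 414, and the replicates placed it at 3248, 1294, 2135 and 995 (mean 1918 ± 1010, SD, n = 4). Replicate 1 gave the weakest placing and replicate 4 the strongest. The summit stood between 2 genes, 148 bp upstream of Rab3GAP1 and 105 bp upstream of CG14352 on the opposite strand. A weaker intronic summit (rank 5029) lay 7119 bp downstream, in an intron shared with haf. Rab3-GEF, the exchange factor gene, had replicate peaks ranked 9562 to 19773, and Rab3-GAP had a peak in replicates 1 and 3, at ranks 8183 and 19146.

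Many of these summits are shared with a neighbour. Of the 15 summits within 1 kb of a TSS, 14 lay upstream of the nearest TSS of the Rab-named gene, against 75.8% of all 4033 pairs of a summit and a gene. For 11 of the 15 another protein-coding gene also had a TSS within 1 kb. No matching share over all optimal summits is given, so this count is not set apart from the rest. At Rab18, Rab30, Rab39 and Rab3GAP1 every summit within 1 kb was nearer to the other gene, and when each summit counted only for its closest start site, 8 of 36 genes (22.2%) kept one, beside 17.3% of all genes. The assignment to a Rab gene is therefore by distance only. The 12 genes with a summit had a median length of 3174.5 bp and 6 of them had 1 TSS. The other 24 had a median of 2313.5 bp and 21 had 1 TSS. Over all genes, those with a summit were also longer (median 3930.5 bp, against 2164.5 bp for all 13968). Fewer of them had 1 TSS as well, 51.2% against 73.5% of all 13968.

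Motifs were searched as exact letters on both strands, and no motif contains another. The nuclear receptor core motif was AGGTCA. The core promoter motif 1 was searched as TGGTCACAC and the DNA replication-related element (DRE) as TATCGATA. The GAGA repeat was GAGAGAG. The first E-box was CACGTG. The other E-box searched, a separate motif, was CAGCTG. The TATA box was written as TATAAA. In 200 bp round the 20 summits the nuclear receptor motif occurred at 1, the second Rab11 summit, while 4.03% of all optimal summits held it. DRE occurred at 2, the start-site summits of Rab8 and Rab40, against 1.49% of all. The first E-box occurred at the strongest Rab5 summit only, against 1.67% of all, and lay outside the central 100 bp. The other E-box occurred at 2, against 7.03%. The TATA box was the most frequent, at 7 of the 20 and at 35.1% of all. Core promoter motif 1 and the GAGA repeat occurred at none of the 20, against 0.58% and 3.67% of all. In the promoters, taken as 250 bp before to 50 bp after the 5′ end of each gene, DRE occurred in more of the family than of all genes. It was held by 11 of 36 Rab-named genes (30.6%) and by 9.36% of all promoters. The 11 were Rab2, Rab6, Rab7, Rab8, Rab14, Rab19, Rab27, Rab30, Rab35, Rab40 and RabX6. Of these 5 were among the 12 genes with a summit (41.7%) and 6 among the 24 without (25%). Over all genes DRE was held by 11.3% of those with a summit and 8.82% of those without. By name, 10 were among the 23 numbered Rab GTPase genes, 1 among the 10 RabX and Rab9-letter genes and 0 among the 3 regulators. Whether DRE and summits go together was not tested. The nuclear receptor motif was held by 2 of the 36 promoters (Rab18 and Rab9D; 5.56%, against 5.88% of all), and the TATA box by 10 (27.8%, against 45.8%). Core promoter motif 1 was held by 3 (8.33%, against 3.41%), and the GAGA repeat by 1 (2.78%, against 5.86%). The first E-box was held by 1 (2.78%, against 4.2%) and the other by 7 (19.4%, against 17.6%). Any of the motifs was present at 10 of the 20 summits and at 47.0% of all optimal summits. A match describes the letters only.

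**Figure D4:**
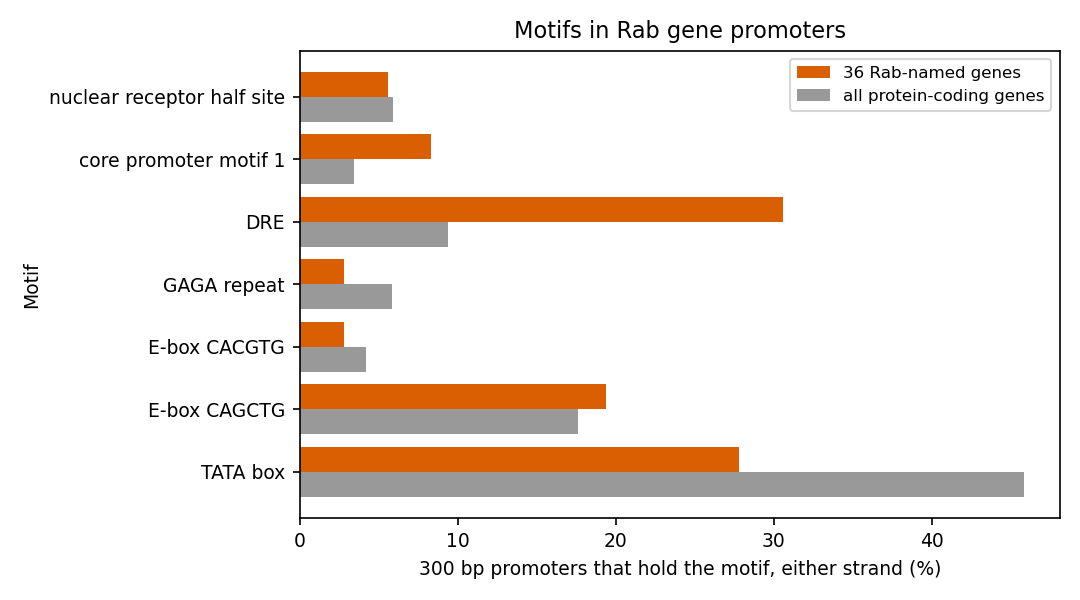
Percentage of 300 bp promoters that hold each motif on either strand (x axis, from 0), for the 36 Rab-named genes and for all protein-coding genes (motifs on the y axis). DRE is at 30.6% against 9.36%, TATA box at 27.8% against 45.8%, and the nuclear receptor core motif at 5.56% against 5.88%.

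The wider Rab pathway had summits at 17 of 64 genes (26.6%, beside 22.0% of all genes), with a median best rank of 3724. Of 4 genes for attaching lipids to Rab proteins and extracting them from membranes, both subunits of the geranylgeranyl transferase had one, RabGGTa at rank 2506 and RabGGTb at rank 3724, while Gdi and Rep had none within 1 kb. Of the 16 genes placed in the GEF list 4 had a summit. The strongest was spri, which encodes a protein of the Rab5 exchange factor type, at rank 238 (mean replicate rank 249.5 ± 58.6, SD, n = 4; 753 bp downstream of a TSS). Mon1 (rank 1426) and Ccz1 (rank 5670), which together form the exchange factor of Rab7, both had a summit close to the start, 42 and 16 bp upstream, and Rich followed at rank 4823. Replicate 2 had no peak overlapping that of Mon1. Of 13 GAP genes 3 had one, Evi5 (rank 4005), plx (4044) and RN-tre (5686). Of 31 effector and tether genes 8 had one. Rbsn-5, a Rab5 effector in endosome fusion, was the strongest at rank 510 (mean replicate rank 587 ± 194, SD, n = 4; 116 bp upstream), then the Rab11 effector Rip11 at 2325, Golgin97 at 3035 and Vps15 at 3294. Rab5, spri and Rbsn-5 had the 3 best ranks of the 100 genes in the family and the lists together.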

How the data were processed

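Readme texts deposited with the samples say what each list was derived from. The authors called peaks on each replicate's alignment with a control and on all 4 pooled. The lists of replicates 2, 3 and 4, with the pooled one, gave the optimal list. For the aligner, caller, threshold and versions, the sources used here name none. The authors' signal score per peak has no stated scale, and the deposited −log10 q-value was 4.26 for every optimal peak. Peaks were therefore ranked by score, within a list only. The 8282 optimal peaks equalled the 8282 strongest pooled peaks, and the pooled alignment included replicate 1.

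Summits were set against TSSs of all transcripts of protein-coding genes (Ensembl 115, dm6) with Python 3.11.15, pandas 2.3.3 and scipy 1.17.1. Sequence came from the RefSeq assembly of the same build. Assignment was tested on simulated data over 13968 genes, and 200 of 200 planted summits were recovered. The sequence of 1 strong summit is not reported here. No set test was run. Members and lists were chosen with earlier results of these data known. Every member was named, with up to 4 genes per pathway list. Of the list symbols, 10 matched no separate gene. Alternatives covered distance, peak strength, overlap, assignment and replicates left out.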

Additional observations from a re-analysis of the deposited data

Results flagged for a closer look

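The Rab40 peak at the start site was marked because 1 replicate stood far from the others. Replicate 4 placed it at rank 4226, whereas replicates 1, 2 and 3 placed it at 8057, 7723 and 8252. Of 15 sets of 4 replicate values examined, this was the only one past Dixon's 95% limit for 4 samples, and chance marks about 1 in 20.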

How the results depend on the processing

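The count of 12 genes changed by more than 1.5 times under 2 alternatives. It was 5 (13.9%) among the 4141 strongest peaks, where 13.5% of all genes remained. It was 6 (16.7%) when all 4 replicates had to cover at least 50% of the peak, where 10.6% of all genes remained. It was 9 (25%) within 500 bp, beside 18.1% of all genes, and 16 (44.4%) within 2 kb, beside 28%. With peaks met by all 4 replicates it was 8 (22.2%, beside 14.2%). The nearest TSS gave 8 (22.2%, beside 17.3%), and summits inside the gene raised the count to 14 (38.9%, beside 26.1%). The mean replicate share was 63.9% with all 30000 peaks of each list, which include background (46.3% of all genes), and 28.5% within 500 bp. No matching share of all genes is given for that 500 bp value. The mean share ranged from 34.3% to 37.0% without each replicate in turn. The median over 9 genes of the mean replicate rank was 3832, and 3270 to 4500 without each replicate. The pathway count of 17 fell to 11 among the 4141 strongest peaks and to 11 among peaks met by all 4 replicates. The shares of all genes fell to 13.5% and 14.2% in these settings. Summits holding any motif numbered 10 in 200 bp and 6 in 100 bp, a narrower window. For the other changes the cause was not tested. No paired analysis was possible because all samples form 1 group. Depth is unknown, and 36 genes give wide intervals.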

Other observations

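Replicate 2 lacked a peak overlapping 5 of the 20 summits at Rab genes (both weaker Rab11 summits, those of Rab18 and Rab30, and the intronic Rab40 summit), although its list held 30000 peaks. It lacked one at 4.17% of all optimal peaks, and the other replicates at 0.302% to 0.869%. The 5 summits ranked from 4517 to 7316 in the optimal list, and the share over all optimal peaks was not matched for rank. Replicate 3 lacked 1 of the 20, at Rab23.

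Rab26 had peaks 336, 414 and 385 bp upstream of an internal TSS in replicates 2, 3 and 4, among the 8282 strongest of each, while the pooled list of 30000 peaks had no summit within 1 kb of any Rab26 TSS. This was so for 251 of 2908 genes (8.63%) that had a summit in at least 3 replicates.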
